A study of Mus musculus with 3 samples.

Results

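Kruppel-like factors (KLFs) of quiescent white blood cells were followed in single-cell RNA profiles of mouse blood. The 7 genes, Klf2, Klf3, Klf4, Klf6, Klf7, Klf10 and Klf13, were chosen by symbol among the 32285 genes of the deposited count tables, which hold 17 genes named Klf with a number. All 7 were measured in T, B, NK and monocyte cells of every library. The libraries were made from the mononuclear fraction of blood of C57BL/6 mice, separated over lymphocyte separation medium and run with the 10x Single Cell 3' v3 kit. The groups were aged mice given AA for 1 month (the aged+AA library), aged mice given PBS for 1 month (the aged library) and young mice given PBS for 1 month (the young library). AA is ascorbic acid by the title of the series, which calls the mice middle-aged. Ages, doses and the number of mice behind each library are not given in the sources used here. With 1 library per group, no difference between groups has a replicate check, and no test was made. Every interval given is a 95% interval for counting error only.

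KLFs are transcription factors with zinc fingers at the C-terminus that bind GC-rich and CACCC elements and either activate or repress, depending on the member and the cofactors it recruits. KLF2 keeps naive T cells out of the cell cycle and drives genes for leaving lymphoid organs, while KLF4 restrains the division of T and B cells and is needed to make monocytes in mice. The RNAs of KLF2 and KLF4 fall when a lymphocyte is activated, so they are often read as marks of the resting state.

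Captured RNA molecules were counted by their unique molecular identifiers (UMIs), of which there were 80424480 in the aged+AA, 94944551 in the aged and 64496639 in the young library. Filtering left 11084, 9765 and 8743 cells, and the median cell had 4057, 3610 and 4451 UMIs. Cells were gated by marker RNAs. The T gate held 4264 aged+AA, 1681 aged and 5390 young cells, the B gate 5320, 3962 and 2497, the NK gate 203, 220 and 341, and the monocyte gate 138, 1315 and 57. Every defining marker of its lineage was detected in each gate of each library, but the gates were drawn with marker RNAs, so this is no independent check of them. The libraries shared 22 to 29 cell barcodes per pair, at most 0.297% of a library. Some properties of the whole libraries moved with the groups. In the T gate, haemoglobin RNA, an erythroid product, took 2.85% of UMIs in the aged+AA, 7.32% in the aged and 2.66% in the young library, and mitochondrial RNA 4.22%, 2.85% and 5.01%. In the B gate the haemoglobin shares were 3.51%, 11.4% and 3.93%, and the mitochondrial shares 4.69%, 3.27% and 5.66%. All 5 neutrophil markers were found in the T gate of each library, and their summed level was 22.6 CPM (counts scaled to a common total per library and gate) in the aged+AA, 128 in the aged and 5.22 in the young library. The part of these differences in the results below was not tested, apart from the alternatives that change the denominator, the mitochondrial limit and the free RNA.

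RefSeq promoters were held for 6 of the 7 genes. The stretches of Klf2 and Klf4 are shown because these 2 genes carried most of the differences below. Each runs 5′ to 3′ on the gene's strand from 250 to 31 bases before the RefSeq start on GRCm38.p6. The Klf2 stretch is chr8:72318812-72319031 (plus strand) and that of Klf4 is chr4:55532506-55532725 (minus strand). Capitals mark GGGCGG, a GC box, on either strand (CCGCCC on the other strand), and in Klf2 also a match to the consensus of MEF2, the factor through which the kinase ERK5 is known to switch Klf2 on.
Klf2: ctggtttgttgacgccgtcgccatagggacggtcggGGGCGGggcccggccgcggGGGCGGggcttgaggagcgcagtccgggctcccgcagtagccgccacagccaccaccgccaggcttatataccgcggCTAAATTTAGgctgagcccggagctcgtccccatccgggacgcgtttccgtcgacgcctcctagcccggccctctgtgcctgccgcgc
Klf4: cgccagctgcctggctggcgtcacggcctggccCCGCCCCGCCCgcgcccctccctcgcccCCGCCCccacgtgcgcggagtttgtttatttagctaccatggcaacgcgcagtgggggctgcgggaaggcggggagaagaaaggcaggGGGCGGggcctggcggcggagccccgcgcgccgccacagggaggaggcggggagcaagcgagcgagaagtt
Klf2 held 2 GGGCGG matches and 1 MEF2 match, at 118 to 109 bases before the start. Klf4 held 4 GGGCGG matches, of which the first 2 overlap by 1 base, and no MEF2 match. Among 32851 promoter stretches of the same 220 bases, GGGCGG was found on either strand in 28.5% and the MEF2 consensus in 2.60%. Klf3 held 6 GGGCGG and 5 CACCC matches, Klf7 held 1 and 3, and Klf6 and Klf13 held 1 GGGCGG each, CACCC being present in 47.8% of all stretches. None of the 6 stretches held the CArG box, found in 1.30% of all. These are matches of letters in a window and say nothing about binding in these cells.

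Klf2, the quiescence and trafficking factor (GRCm38, GENCODE M21, chr8:72319033-72321656, plus strand), was lower in the aged than in the young library in every gate. The aged+AA library lay above the aged one in every gate. In the B gate its level was 2314 CPM in the aged+AA, 1411 in the aged and 2629 in the young library. NK cells stood at 2255, 1388 and 2599 CPM in the same order. The T gate gave 2155, 1392 and 1694 CPM and the monocyte gate 1211, 713 and 1813 CPM. The aged library was thus the lowest of the 3 in each gate, and the intervals of the 3 libraries did not overlap within any gate. The aged+AA library was below the young one in B, NK and monocyte cells and above it in T cells.

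**Figure D1:**
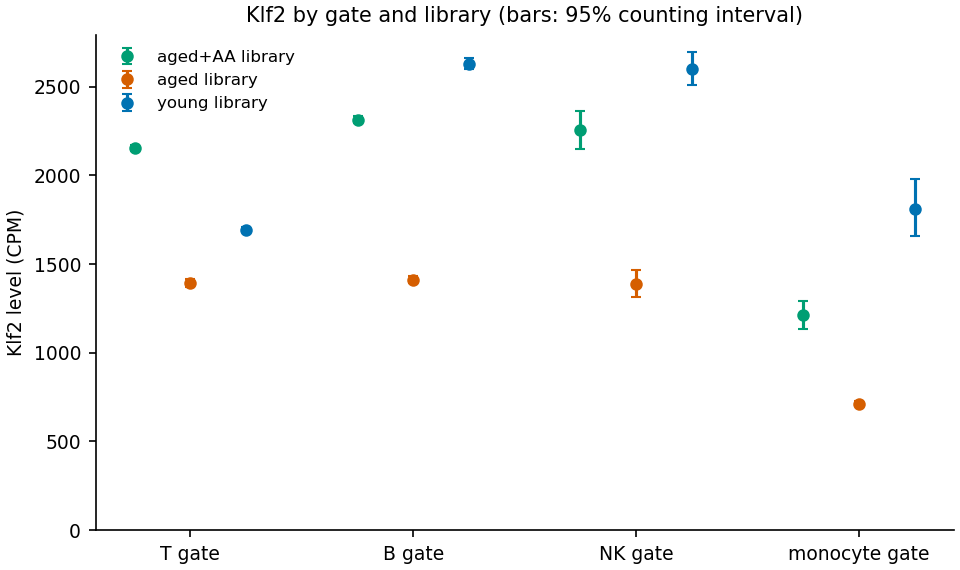
Klf2 level in CPM (vertical axis) in the T, B, NK and monocyte gates of the aged+AA, aged and young libraries. Points are sums over all cells of a gate and bars are 95% counting intervals. The aged point is the lowest in each gate, at 713 to 1411 CPM.

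A gene was called past the fold when its CPM ratio, and also that ratio divided by the median ratio of all genes of the gate, were both at least 1.5 or both at most the inverse, with an interval that excluded 1. Both scales were used because the median gene itself moved, by 0.31 on the log2 scale in T cells and 0.16 in B cells for aged over young. Klf2 in the B gate was 0.537 times as high in the aged as in the young library (0.527 to 0.546), and 0.534 times in the NK gate (0.499 to 0.571). The monocyte ratio was 0.393 (0.360 to 0.431). T cells had a ratio of 0.822 (0.806 to 0.838), or 0.662 relative to the median gene, which did not pass on both scales. Between the aged+AA and aged libraries Klf2 passed in all 4 gates, with 1.55 in T (1.52 to 1.58), 1.64 in B (1.61 to 1.67), 1.62 in NK (1.51 to 1.75) and 1.70 in monocyte cells (1.59 to 1.82). With cells weighted equally in place of summed, the ratios were 1.48 in T, 1.44 in NK and 1.52 in monocyte cells, and Klf2 was then called in B cells only. Non-classical monocytes alone, described further on, gave 1.11. Aged+AA over young gave 1.27 in T, 0.880 in B, 0.867 in NK and 0.668 in monocyte cells, none of them past the fold. The comparisons with the young and with the aged+AA library share the aged library.

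The Klf2 difference also showed as more cells with a UMI, a share taken from the same counts and so no separate support. After thinning each cell to 1000 UMIs, 82.3% of aged+AA, 68.8% of aged and 86.6% of young B cells had a Klf2 UMI. T cells gave 81.3%, 68.9% and 76.5%, NK cells 77.1%, 68.7% and 85.2%, and monocyte cells 61.6%, 49.9% and 82.1%. Without thinning, 92.1% to 98.8% of cells had one. The median B cell had 8 Klf2 UMIs in the aged+AA, 4 in the aged and 9 in the young library, and the median T cell 11, 7 and 8. No gate served as a background without Klf2. In free RNA outside cells, Klf2 stood at 2727 CPM in the aged+AA, 1209 in the aged and 1774 in the young library, the same order as in T cells. Free RNA was estimated to make up 1.66%, 2.13% and 0.913% of the UMIs of T cells in those libraries. With it subtracted, the T ratio of aged+AA over aged was 1.54.

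Few genes shared the pattern of Klf2 over gates. Of 3951 genes that could be called in all 4 gates, 8 were higher in each for aged+AA over aged (0.202%). This count is of summed UMIs, and Klf2 lay close to the limit. With cells weighted equally Klf2 stood at 1.48 in T and 1.44 in NK cells and would not be among the genes counted. Among the 8 by summed UMIs were 2810013P06Rik, Cd69, Jun, Klf2, Smad7, Ttc19 and mt-Nd2, genes picked out after their values were known. Of 4514 genes, 47 (1.04%) were lower in the B, NK and monocyte gates for aged over young, Klf2 among them, with Btg2 and Tob1, brakes on cell division, and Smad7. With the T gate added, 30 of 4508 (0.665%) were lower in all 4 gates, and Klf2 was not one of them.

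T cells were split further for Klf2. Cells with Cd8a or Cd8b1 RNA and no Cd4 RNA (2289 aged+AA, 697 aged and 2026 young cells) held Klf2 at 2209, 1435 and 1718 CPM. Cells with the reverse pattern (693, 474 and 1062 cells) held it at 1942, 1286 and 1634 CPM. The aged+AA over aged ratio was thus close in the 2 parts, at 1.54 (1.5 to 1.58) in CD8 and 1.51 (1.45 to 1.58) in CD4 cells. T cells with at least 2 UMIs of Ccl5, a chemokine gene of memory and effector cells, were taken apart from those with none, and cells with 1 UMI were left out. Klf2 was lower in cells with than in cells without Ccl5 in each library, by ratios of 0.872 in the aged+AA, 0.788 in the aged and 0.702 in the young library. Cells with Ccl5 held 1997, 1194 and 1234 CPM, so the aged and young libraries did not differ beyond counting error (0.967, 0.925 to 1.01). The ratio of aged+AA over aged was 1.67 (1.62 to 1.73) with Ccl5 and 1.51 (1.47 to 1.55) without, both past the fold, as were 2.81% and 2.95% of all genes on the higher side. Cells with Ccl5 numbered 1588, 537 and 436, against 2027, 940 and 4689 without, so the make-up of the T gate moved with the groups.

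Klf4, the factor of monocyte formation and of lymphocyte arrest (chr4:55527143-55532466, minus strand), was mainly a monocyte gene here. Its monocyte level was 565 CPM in the aged+AA, 290.4 in the aged and 637 in the young library. T cells held 38.3, 25.7 and 26.6 CPM and NK cells 36.1, 32.8 and 34.7 CPM, with counting intervals in NK cells that overlapped. B cells lay between, at 61.1, 44.4 and 85.9 CPM. Monocyte cells thus held 14.8, 11.3 and 23.9 times the T level in these libraries. After thinning, 42.0%, 27.1% and 39.3% of monocyte cells had a Klf4 UMI, against 3.68%, 3.04% and 2.77% of T cells. Free RNA held Klf4 at 47.8, 88.2 and 17.1 CPM, so this value was highest in the aged library, unlike the levels in B and monocyte cells.

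For aged over young, Klf4 was lower past the fold in the B gate (0.517, 0.467 to 0.571) and in the monocyte gate (0.456, 0.392 to 0.533), and close to even in T cells (0.965, 0.831 to 1.12). Non-classical monocytes alone, described further on, held 555 CPM in the aged library and 644 CPM in the 49 young cells. Set against the aged library, aged+AA monocyte cells were higher past the fold (1.94, 1.76 to 2.15). T cells lay just outside the fold at 1.49 (1.29 to 1.72) and B cells were at 1.38 (1.26 to 1.51). The CD8 part held 35.8 CPM in the aged+AA, 19.3 in the aged and 30.5 in the young library. It passed the fold against the young library in aged cells (0.632, 0.495 to 0.801) and against the aged library in aged+AA cells (1.86, 1.48 to 2.36), on 562, 86 and 389 UMIs. In the CD4 part the ratio of aged+AA over aged was 1.63 (1.21 to 2.21), past the fold, and that of aged over young 1.11 (0.810 to 1.5). T cells without Ccl5 gave 1.56 (1.29 to 1.89) for aged+AA over aged, also past the fold. Set against the young library, aged+AA cells were higher past the fold in the CD4 part (1.81, 1.43 to 2.29) and in T cells without Ccl5 (1.71, 1.51 to 1.93), as were 7.82% and 5.35% of all genes. The CD8 part stood at 1.17 (1.03 to 1.34) in that comparison and was not called. Of all genes tested for aged+AA over aged, 2.66% in the CD8 and 2.89% in the CD4 part were higher past the fold. Of those tested for aged over young in the CD8 part, 3.81% were lower.

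Klf10, also called TIEG1, is induced early by TGF-beta and represses the inhibitor Smad7 (chr15:38291463-38300706, minus strand). Its monocyte level was 169.8 CPM in the aged+AA, 94.7 in the aged and 267 in the young library, each above every other gate of the same library. B cells held 19.5, 20.5 and 39.6 CPM, T cells 30.6, 27.6 and 32.1 CPM, and NK cells 49.4, 56.6 and 64.3 CPM. The aged over young ratio passed the fold in B (0.517, 0.445 to 0.600) and monocyte cells (0.355, 0.280 to 0.454). With cells limited to 5% mitochondrial UMIs, the B ratio of aged over young was 0.932 (0.707 to 1.247) and was no longer called. In B cells the aged+AA library stood with the aged one, at a ratio of 0.954 (0.824 to 1.11), and was 0.493 times the young level (0.429 to 0.566), past the fold. This call was also lost under the 5% limit, where the ratio was 0.831 (0.627 to 1.12). In monocyte cells it was 1.79 times the aged level (1.49 to 2.15) and 0.636 times the young level (0.476 to 0.855), both past the fold. For aged+AA over young, 2.85% of all genes in B and 4.98% in monocyte cells were lower past the fold, and Klf10 was the 1 member called in these gates. That count depended on the settings: with the 5% limit it was 0 in B cells and 2 in monocyte cells (Klf2 and Klf10).

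Klf3, a repressor that works through the corepressor CtBP (chr5:64803388-64832901, plus strand), was higher in aged than in young T cells, with 282 CPM in the aged+AA, 284 in the aged and 196.9 in the young library. The ratio of aged over young was 1.44 (1.38 to 1.51), or 1.16 relative to the median gene, under the fold. That of aged+AA over aged was 0.993 (0.950 to 1.04). Both libraries of aged mice thus lay above the young one in T cells. In CD8 cells the aged over young ratio was 1.44, in CD4 cells 1.38, with Ccl5 1.40 and without Ccl5 1.40, so it was of like size in each part of the T gate. Relative to the median gene of each part, these ratios were 1.19, 1.12, 1.18 and 1.14. B cells held the least in every library, at 89.0, 98.5 and 90.05 CPM. NK cells held 238, 222 and 191 CPM with overlapping intervals. Monocyte cells ran the other way to T cells, with 356 CPM in the aged+AA, 222 in the aged and 438 in the young library, and a ratio of 0.507 for aged over young (0.423 to 0.612), past the fold. The monocyte gates differed in make-up, as described further on. Non-classical monocytes alone held 348 CPM in the aged library and 459 CPM in the 49 young cells.

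Klf6, an early-response factor of macrophages and many other cells (chr13:5861482-5870394, plus strand), differed between libraries in T and in B cells. The T level was 663 CPM in the aged+AA, 591 in the aged and 392 in the young library. The ratio of aged over young was 1.51 (1.46 to 1.56), or 1.21 relative to the median gene, so it was past the fold on 1 of the 2 scales and was not called. In the B gate the order differed, with 303, 223 and 334 CPM and a ratio of 0.667 for aged over young (0.636 to 0.699), just outside the fold. NK cells held 521, 482 and 544 CPM and monocyte cells 423, 299 and 381 CPM. Klf6 in the aged+AA library stood, against the aged one, at 1.12 in T, 1.36 in B, 1.08 in NK and 1.41 in monocyte cells. T cells with Ccl5 held 716 CPM in the aged+AA and 407 in the young library, a ratio of 1.76 (1.66 to 1.87) that passed the fold, as did 6.19% of all genes on the higher side.

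Klf13, also known as RFLAT-1 and first described in human T cells as an activator of CCL5 (chr7:63886351-63938915, minus strand), passed the fold in none of the 4 gates. Monocyte cells held 747 CPM in the aged+AA, 757 in the aged and 805 in the young library. NK cells (298, 313 and 289 CPM) and B cells (213, 217 and 196 CPM) had ratios from 0.954 to 1.10 in the 3 comparisons. T cells held 256 CPM in the aged+AA, 318 in the aged and 305 in the young library, with a ratio of 0.804 for aged+AA over aged (0.770 to 0.840). T cells with Ccl5 held less Klf13 than those without in each library, by ratios of 0.672, 0.683 and 0.702. Ccl5 itself was 7.0 times as high in the T gate of the aged as of the young library. CD8 cells likewise held less Klf13 than CD4 cells, at 0.672, 0.777 and 0.786 of the CD4 level.

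Klf7 (chr1:64029447-64122282, minus strand), best known from the growth of neurons, also passed the fold in no gate. T cells held 58.5 CPM in the aged+AA, 44.8 in the aged and 52.9 in the young library, a ratio of 0.847 for aged over young (0.758 to 0.944), while aged+AA over aged gave 1.31 (1.17 to 1.46). B cells held 26.0, 25.3 and 28.6 CPM. The 12 Klf7 UMIs of the young monocyte cells allow no finer reading, and the intervals of the 3 libraries overlapped within NK and within monocyte cells. T cells without Ccl5 held more Klf7 than those with it in the aged+AA and young libraries (with over without, 0.607 and 0.664), and 0.823 (0.660 to 1.02) was found in the aged library.

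**Figure D2:**
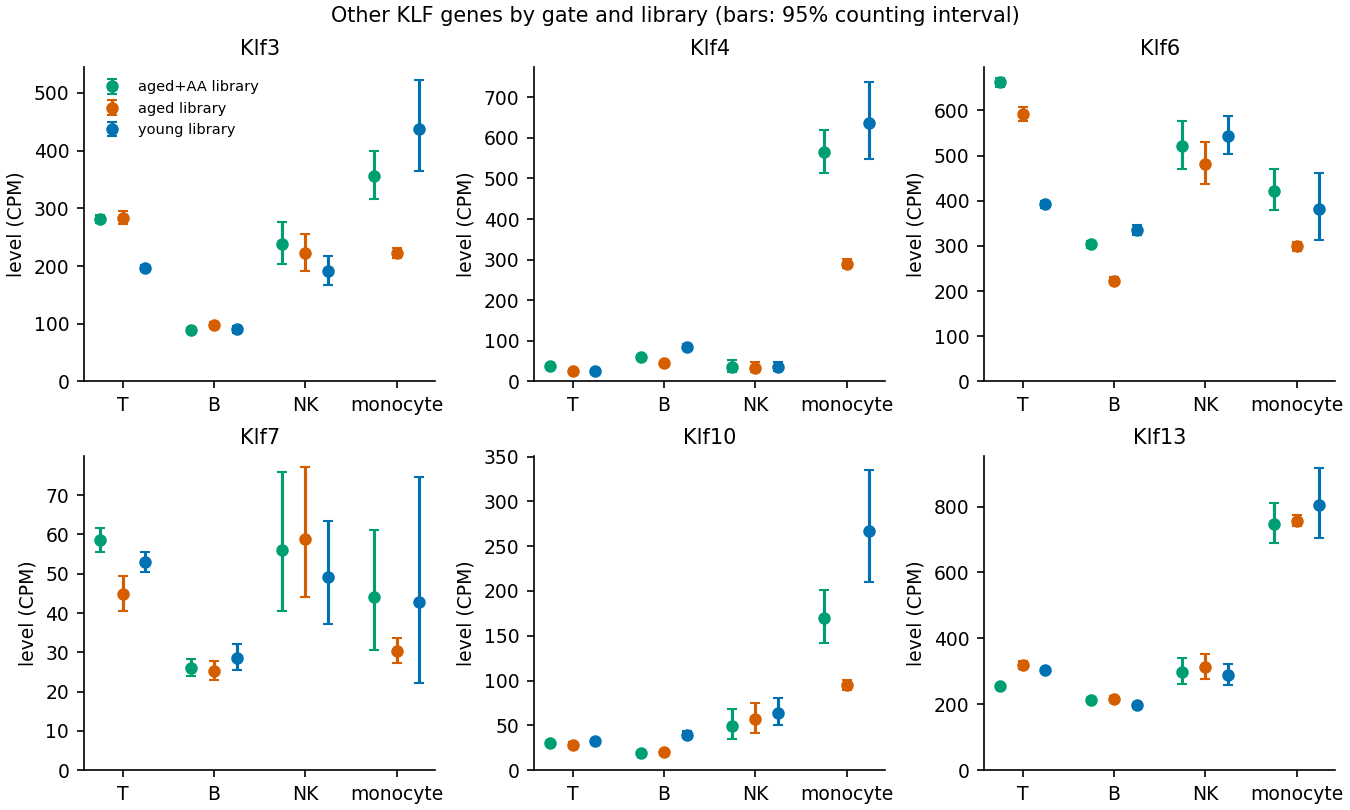
Levels in CPM (vertical axes) of Klf3, Klf4, Klf6, Klf7, Klf10 and Klf13 in the T, B, NK and monocyte gates, with 1 point per library and bars for 95% counting intervals. Klf4, Klf10 and Klf13 were highest in monocyte cells in every library, while Klf3 and Klf6 in T cells were higher in the aged (284 and 591 CPM) than in the young library (196.9 and 392 CPM).

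Set against all genes, the counts of the 7 differed by gate. For aged over young, 0 of the 7 passed the fold in T cells, where 17.4% of all genes did in either direction. In B cells 3 were lower past the fold (Klf2, Klf4 and Klf10), against 4.63% of all genes, and 2 (Klf2 and Klf4) with cells limited to 5% mitochondrial UMIs. In NK cells 1 was lower (Klf2), against 6.36%, and in monocyte cells 4 were lower (Klf2, Klf3, Klf4 and Klf10), against 9.33%. The monocyte gates differed in make-up, as described further on. In the aged library, non-classical monocytes alone held 1277 CPM of Klf2, 348 of Klf3, 555 of Klf4 and 142 of Klf10. The 49 young cells of this kind, too few for a call, held 1839, 459, 644 and 266 CPM. The part of the make-up in the count of 4 was not tested. The median ratio of the 7 was 0.965 in T, 0.667 in B, 0.946 in NK and 0.507 in monocyte cells. Between aged+AA and aged cells Klf2 alone of the 7 was higher past the fold in T (2.95% of all genes), B (4.03%) and NK cells (3.50%). In monocyte cells 3 of the 7 were higher (Klf2, Klf4 and Klf10), against 7.93%, but none passed in non-classical monocytes alone. For aged+AA over young, none of the 7 passed in T or NK cells, where 11.9% and 7.37% of all genes did in either direction.

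**Figure D3:**
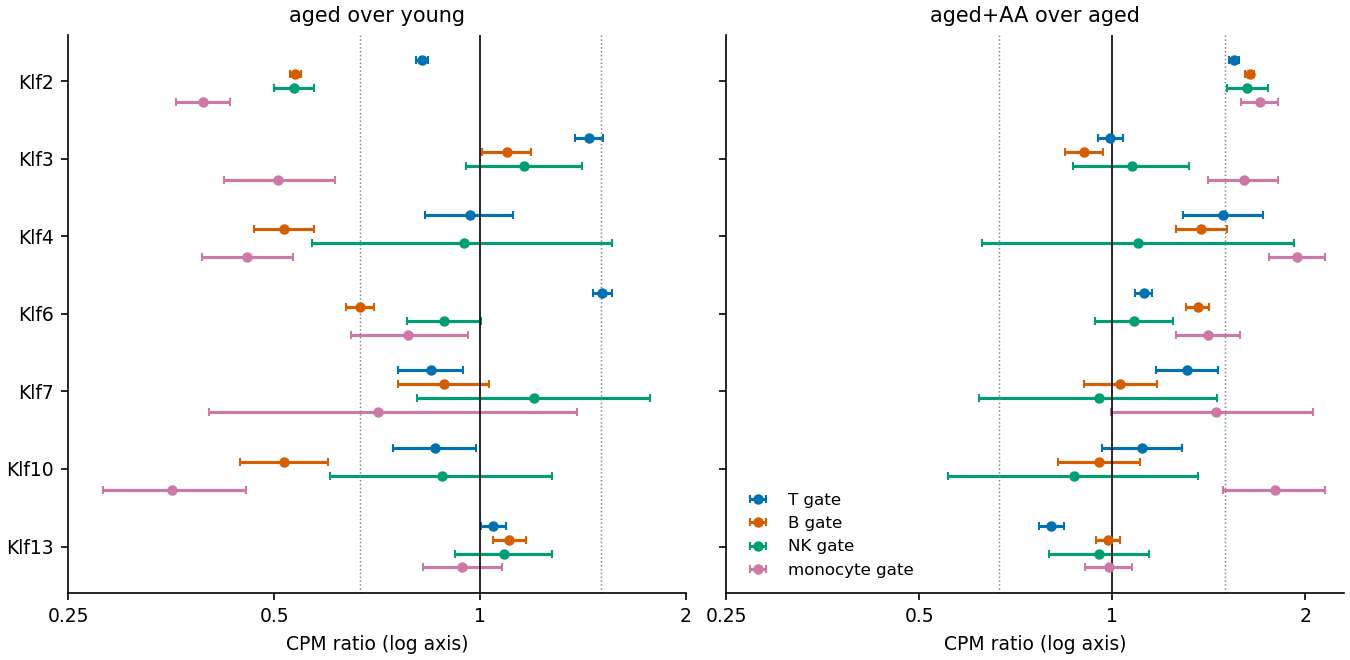
CPM ratios (horizontal log axes) of the 7 genes, aged over young on the left and aged+AA over aged on the right, with 1 point per gate and 95% counting intervals. The solid line is at 1 and the dotted lines at the 1.5-fold limits. The Klf2 ratios lie between 0.393 and 0.822 on the left and between 1.55 and 1.70 on the right.

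The monocyte values moved with the kind of monocyte in the gate. Classical cells, with most marker UMIs from Ly6c2, Ccr2 and F13a1, were 32 of 138 in the aged+AA, 811 of 1315 in the aged and 3 of 57 in the young library. Within the aged library, non-classical cells, which patrol vessels and carry Treml4, Ace and Eno3 RNA, held 2.34 times the Klf2 of classical cells (2.24 to 2.45). The like ratios were 2.60 for Klf4, 2.12 for Klf7, 1.90 for Klf3, 1.77 for Klf10, 1.27 for Klf6 and 1.08 for Klf13. Among non-classical cells alone, Klf2 stood at 1415 CPM in the 103 aged+AA and 1277 CPM in the 475 aged cells, a ratio of 1.11 (1.02 to 1.21). Klf4 gave 1.25 (1.10 to 1.41), Klf3 1.40 (1.20 to 1.62) and Klf10 1.64 (1.31 to 2.04). None passed the fold on both scales there, where 3.50% of all genes were higher past it. The 49 young non-classical cells, under the minimum of 50, held Klf2 at 1839 CPM and Klf4 at 644 CPM. The 32 classical aged+AA cells held 924 CPM of Klf2 and 382 CPM of Klf4, against 546 and 213 CPM in the 811 classical aged cells. T-cell markers summed to 214 CPM and B-cell markers to 347 CPM in these 32 cells, against 30.8 and 82.8 CPM in the 811. In the whole monocyte gate the T-cell markers stood at 109, 29.9 and 21.4 CPM in the aged+AA, aged and young libraries. The B-cell markers stood at 179, 83.7 and 89.0 CPM. The part of lymphocyte RNA in the monocyte values was not tested.

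**Figure D4:**
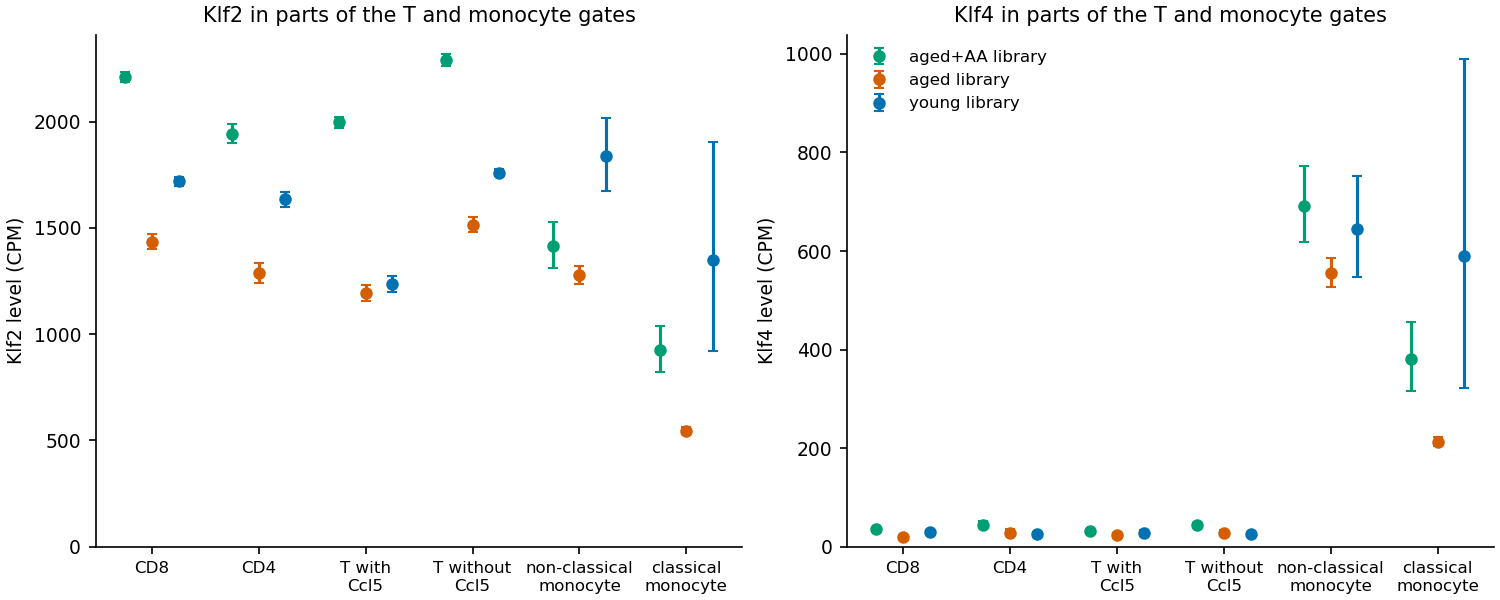
Klf2 (left) and Klf4 (right) levels in CPM in parts of the T and monocyte gates of the aged+AA, aged and young libraries, with 95% counting intervals. The classical part rests on 32, 811 and 3 cells, and Klf2 in the non-classical part lies at 1415, 1277 and 1839 CPM.

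Genes linked to the 7 were taken from lists. In either direction, 17.4% of all genes in T, 14.8% in B, 13.6% in NK and 17.1% in monocyte cells passed the fold for aged over young, and 9.25%, 8.83%, 8.65% and 13.1% for aged+AA over aged. Of the genes linked to KLF2 in T cells, S1pr1, Ccr7, Il7r and Itgb7 did not pass the fold in T cells for aged+AA over aged. S1pr1, the receptor for leaving lymph nodes, had 226 CPM in aged+AA and 266 CPM in aged T cells, a ratio of 0.849 (0.810 to 0.891). Ccr7, the receptor for entering lymph nodes, had 1.44 (1.38 to 1.49). For aged over young 1 of these 4 was lower past the fold in T cells, Il7r, the receptor for the survival factor IL-7, with 578 CPM in the aged and 958 CPM in the young library (0.604, 0.586 to 0.622). S1pr1 was then at 1.10. For aged+AA over aged S1pr1 thus lay below 1 in the T gate, where Klf2 lay at 1.55.

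Smad7, the inhibitor of TGF-beta signalling named above beside Klf10, was lower past the fold for aged over young in all 4 gates, at 0.590 in T, 0.598 in B, 0.642 in NK and 0.275 in monocyte cells. Set against the aged library, aged+AA cells were higher in all 4, at 1.69, 1.61, 1.83 and 2.37. In T cells, where the aged+AA, aged and young levels of Smad7 were 435, 257 and 435 CPM, Klf10 did not pass the fold in either comparison. Of the other 5 genes of this list, Smad3 was higher past the fold for aged over young in T (2.21), B (2.22) and NK cells (1.63). In monocyte cells Smad3 was not called (0.887), and Tgfbr1, a receptor of TGF-beta, was lower past the fold (0.374, 0.263 to 0.550). For aged+AA over aged, Smad3 was lower past the fold in B (0.626) and NK cells (0.569) and higher in monocyte cells (1.67), where Tgfbr1 was also higher (2.35). Of the 6 genes of this list, 3 were thus higher past the fold in the monocyte gate, but 1 in non-classical monocytes alone. The monocyte gates differed in make-up, as given above, and the part of this in the monocyte ratios of both comparisons was not tested.

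Cell-cycle inhibitors were mostly on the lower side in the aged library. Btg2, an antiproliferative gene of resting lymphocytes, was at 0.657 in T, 0.537 in B, 0.659 in NK and 0.573 in monocyte cells for aged over young, and Tob1 at 0.576, 0.384, 0.404 and 0.449, each past the fold. Of the 5 genes listed, 2 passed in T, 3 in B, 2 in NK and 5 in monocyte cells, all lower. Between aged+AA and aged cells, 1 passed in T cells (Cdkn1a, lower at 0.518), none in B and NK cells, and 2 in monocyte cells (Btg1 at 1.73 and Tob1 at 1.74, both higher). In non-classical monocytes alone, none of the 5 passed in that comparison. The monocyte gates differed in make-up, as given above, and the part of this in the monocyte counts of both comparisons was not tested.

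Factors that act on the KLFs moved little in T cells for aged+AA over aged. Of 6 upstream genes (Foxo1, Mapk7 for ERK5, Map2k5 and 3 Mef2 genes), none passed the fold there, and Foxo1, an activator of Klf2 in resting T cells, had a ratio of 0.941 (0.869 to 1.02). For aged over young, Mef2c was higher in the T gate (4.61, 2.86 to 7.54). Monocyte markers in that gate summed to 99.7 CPM in the aged and 11.7 CPM in the young library. B-cell markers there were also higher in the aged library. The part of RNA from other cells in the Mef2c ratio was not tested. None of 4 ubiquitin ligase genes of KLF2 turnover (Fbxw7, Smurf1, Wwp1 and Itch) passed the fold in T cells in either comparison. Of 5 corepressor genes, Ctbp2, a partner of KLF3, was lower in T cells for aged over young (0.431, 0.207 to 0.814) and higher for aged+AA over aged (1.96, 1.02 to 4.14). Of 13 further KLF and SP genes, 7 could be tested in T cells, and Klf16 was higher past the fold for aged over young (2.29, 1.76 to 2.97). Klf9 was at 225 CPM in the aged+AA, 158 in the aged and 267 in the young monocyte cells and was lower past the fold for aged over young (0.592, 0.470 to 0.757). The part of the make-up of the monocyte gates in this ratio was not tested.

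Immediate early genes, which respond within minutes to stimulation or to handling of cells, moved beside Klf2 most clearly in B cells. Of 14 such genes, 11 were lower past the fold in B cells for aged over young and none higher, where 4.63% of all genes were lower. For aged+AA over aged, 9 were higher and 1 lower in B cells, where 4.03% of all genes were higher. Their summed level in B cells was 6706 CPM in the aged+AA, 3902 in the aged and 7960.5 in the young library, and in NK cells 8094, 5757 and 8778 CPM. T cells held 5651, 4119 and 5398 CPM and monocyte cells 7384, 5717 and 8037 CPM. The aged library was the lowest in each gate, as it was for Klf2. Jun, a subunit of AP-1, was at 1.77 in T, 2.51 in B, 2.25 in NK and 2.51 in monocyte cells for aged+AA over aged. In T cells the list was mixed for aged over young, with 3 higher (Ier3, Nr4a1 and Atf3) and 2 lower (Ier5 and Dusp2). In NK and in monocyte cells 5 were lower and 1 higher, where 6.36% and 9.33% of all genes were lower. For aged+AA over aged, 4 were higher and 1 lower in T cells, and 4 higher and none lower in NK cells. Monocyte cells then had 3 higher and 2 lower. On the higher side, 2.95% of all genes passed in T, 3.50% in NK and 7.93% in monocyte cells. The part of cell handling or stimulation in the KLF values was not tested, and with 1 library per group it cannot be told apart from age or treatment.

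**Figure D5:**
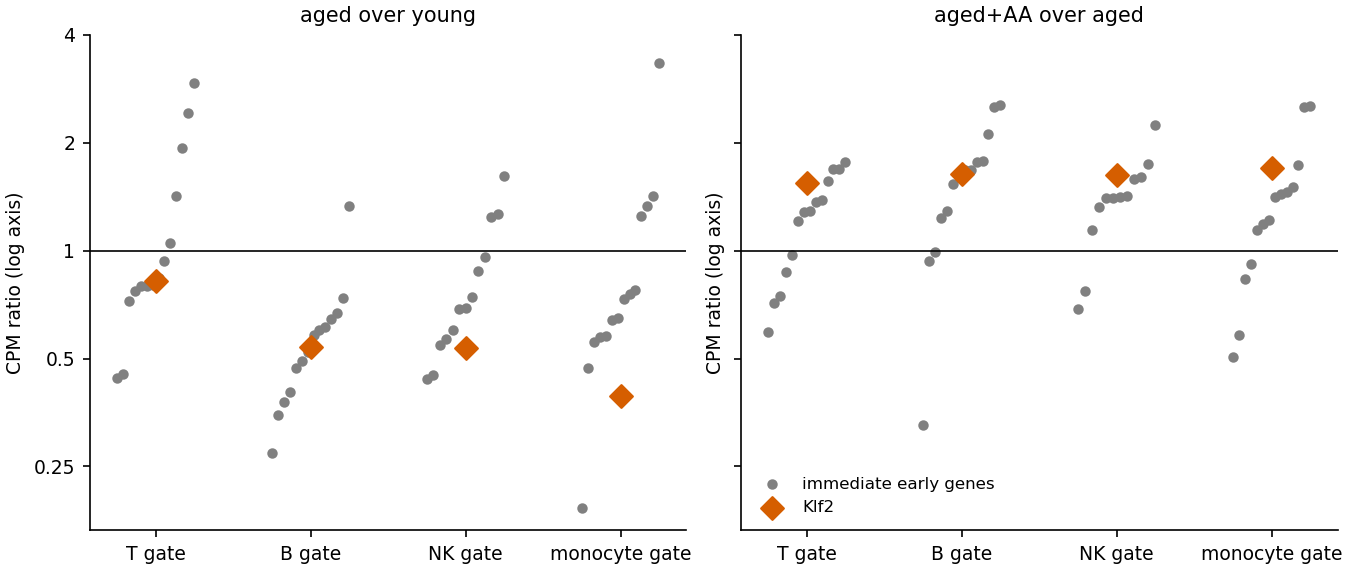
CPM ratios (vertical log axes) of the immediate early genes (grey points, sorted within each gate) and of Klf2 (diamond) per gate, aged over young on the left and aged+AA over aged on the right. Points are ratios of summed counts, without intervals. In B cells the Klf2 ratio was 0.537 on the left and 1.64 on the right, within the range of the immediate early genes.

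Across the 12 sums of 3 libraries by 4 gates, the 7 genes fell into different patterns. Pearson correlations of log2(CPM + 10) were highest between Klf10 and Klf13 (0.892), Klf6 and Klf7 (0.858), Klf4 and Klf10 (0.851) and Klf4 and Klf13 (0.838). Klf2 ran opposite to Klf13 (-0.631) and had no correlation above 0.286 with another member. The points share libraries, depth and free RNA, so the values are descriptions. Klf4, Klf10 and Klf13 were highest in monocyte cells in every library, so correlations with these genes also carry the contrast between monocyte cells and the other gates. Among 10677 genes searched, the genes most like Klf2 were Dbr1 (0.946), Gm32036 (0.943) and Fkbp4 (0.928), and those most like Klf4 were Lpcat2 (0.992), Htra2 (0.985) and Wwc2 (0.984). The first in rank were Sntb2 for Klf3 (0.955), Zwint for Klf6 (0.942), Ncapd3 for Klf7 (0.930) and Gsr for Klf13 (0.994). Cnppd1 (0.966) and Adrb1 (0.965) were among the 3 genes most like Klf10.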

How the data were processed

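Per the file headers, the authors made raw UMI counts with Cell Ranger 4 and deposited every barcode. Seurat 3.1.0 and the build mm10 are named, without a role, in the submitters' processing notes. The 7 genes and the gene lists were chosen with earlier results of these data known.

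A barcode was a cell when its UMIs reached 1/10 of the percentile 99 of the 5000 deepest, or when its profile was unlike free RNA (ranks 45001 to 90000, false discovery rate 0.01, 10000 draws). Cells needed at least 500 UMIs, 250 genes and at most 10% mitochondrial UMIs. Scrublet in scanpy 1.11.5 removed 465 aged+AA, 418 aged and 395 young doublets (4.03%, 4.10% and 4.32%). A gate needed at least 3 UMIs from at least 2 of its lineage's markers, and 80% of the UMIs of the T, B, NK, monocyte and neutrophil markers; this panel of 5 lineages and the rules for splitting gates were set after the data were seen. Counts were summed per library and gate and scaled to CPM in Python 3.11.15 with numpy 2.4.6, scipy 1.17.1 and pandas 2.3.3. Intervals were exact Poisson (CPM), exact conditional binomial (ratios) and exact binomial (shares). Genes needed at least 50 UMIs over both libraries and gates at least 50 cells in each. The ratio step was checked on simulated counts. Named genes were all 7 members and, of each list, those past the fold or else the genes with most UMIs; genes of like pattern were the 3 with the highest correlation. Gene positions are from GENCODE M21 and promoters from RefSeq. Figures were drawn with matplotlib 3.10.9. Proteins were not used here, and a few listed genes are not reported here.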

Additional observations from a re-analysis of the deposited data

Results flagged for a closer look

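Each result here was picked out because the ratio of 1 gene lay over 1.25-fold above 1 in one gate and as far below 1 in another, with counting intervals that excluded 1 in both. None of these differences between gates was tested across mice, since each group was 1 library. For aged over young, the Klf3 ratio in T cells (1.44) was 2.84 times that in monocyte cells (0.507). The Klf6 ratio for aged over young in T cells (1.51) was 2.26 times that in B cells (0.667) and 1.92 times that in monocyte cells (0.785). Under a 5% mitochondrial limit the interval of this monocyte ratio held 1 (0.675 to 1.03). The monocyte gates also differed in make-up, as given above. In non-classical cells alone Klf6 stood at 360 CPM in the aged library and 346 CPM in the 49 young cells. For aged+AA over young, the Klf2 ratio in T cells (1.27) was 1.90 times that in monocyte cells (0.668), and the Klf4 ratio in T cells (1.44) was 2.02 times that in B cells (0.712). The rule used CPM ratios alone. Relative to the median gene, the T ratios for aged over young were 1.16 for Klf3 and 1.21 for Klf6. For aged+AA over young the relative T ratio of Klf2 was 1.11. These 3 lie under 1.25-fold. Klf4 stood at 1.26 in T and 0.643 in B cells on that scale.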

How the results depend on the processing

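No direction of a called gene reversed under the alternatives tried. For aged+AA over aged in T cells, the count of members past the fold was 1 (Klf2), and 2 (Klf2 and Klf4) with a minimum of 1500 UMIs, with free RNA subtracted, and without ribosomal, mitochondrial, haemoglobin and immunoglobulin UMIs in the denominator. It was 0 in T and in NK cells with cells weighted equally, which gave Klf2 ratios of 1.48 and 1.44. With a fold of 2 it was 0 for aged+AA over aged in T, B, NK and monocyte cells, and 0 for aged over young in B and NK cells. In monocyte cells equal weights took the Klf2 call (1.52) and added Klf3. Under a 5% mitochondrial limit, Klf10 in B cells lost both its calls against the young library: aged cells stood at 0.932, which left 2 members in place of 3, and aged+AA cells at 0.831, which left 0 in place of 1. Monocyte counts for aged+AA over young, 1 in the main setting, were 2 (Klf2 and Klf10) under the 5% limit, with 1500 UMIs, with free RNA subtracted and with the smaller denominator, 1 (Klf2 in place of Klf10) with equal weights, and 0 with doublets kept or a fold of 2. The other counts of members in the 4 gates, those with a stricter gate (at least 5 UMIs and 90%) and from 20 UMIs included, were within 1.5 times the main count. Of 83 ratios, 16 left their 95% interval under the 5% limit, 15 with equal weights and 14 with the smaller denominator. Shares of cells with a UMI changed in 83 of 84 cases without thinning and in 78 at 2000 UMIs, since they depend on depth. Monocyte values of the young library rest on 57 cells. No paired analysis was possible because each group was 1 library, and for the same reason no replicate could be left out.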

Other observations

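Cells of the neutrophil gate, which entered none of the comparisons above, numbered 196 in the aged+AA, 918 in the aged and 19 in the young library, the fraction being one in which few granulocytes are kept. Klf7 there stood at 141 CPM in the aged+AA, 109 in the aged and 264 in the young library, above its level in the T, B, NK and monocyte gates of the same library. Klf2 was at 1384 CPM in the aged+AA (1293 to 1479), 1072 in the aged (1038 to 1108) and 960 in the young library (783 to 1166), so the aged and young intervals overlapped, and the 19 young cells are under the minimum of 50. T-cell markers summed to 200, 38.4 and 414 CPM in this gate, and B-cell markers to 558, 169 and 9.42 CPM. The part of lymphocyte RNA in these Klf2 values was not tested. Klf4, at 19.2, 57.0 and 47.1 CPM, was far below its level in monocyte cells, the other myeloid gate. The young value rests on 5 UMIs, all in the same cell. In the aged library 5.34% of these cells had a Klf4 UMI, with up to 16 in a cell. Klf13 was at 275, 298 and 330 CPM and Klf6 at 554, 441 and 405 CPM.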
